A study of Mus musculus with 3 samples.

Results

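The heat shock proteins and the J-domain chaperones were examined in RNA sequencing libraries of the prelimbic cortex (PrL) of mice. The genes were taken by name from the protein-coding genes of the table (Hspa, Hspb, Hspd, Hspe, Hsph and Hsp90 genes, Dnaja, Dnajb and Dnajc genes, and Hsf genes), where FPKM averaged 0.1 or more across the 3 libraries. FPKM is the fragment number scaled by gene length and by the depth of the library. Of 78 protein-coding genes with such a name, 72 passed this limit, among 20203 genes of the whole table that passed it and 54532 genes in all. The other 6 (Dnajb7, Dnajb8, Dnajc22, Hsf3, Dnajc5b and Dnajc5g) had at most 3 reads in any library. The 72 genes comprised 11 HSP70 genes, 3 HSP110 genes, 3 HSP90 genes, 8 small HSP genes, the mitochondrial chaperonin pair Hspd1 and Hspe1, 40 J-protein genes (4 DNAJA, 11 DNAJB and 25 DNAJC) and 4 heat shock factor genes. The last gene, Hsf2bp, shares only letters with the others, since it encodes a protein that binds heat shock factor 2 and acts in meiotic recombination, and it was kept apart.

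The mice were male C57BL/6J animals of 6 to 8 weeks that were housed singly and received AAV/9 vectors in the PrL of both hemispheres. The vectors carried the neuronal hSyn promoter. The CUMS vehicle group received rAAV-hSyn-bGH-polyA-CMV-EGFP, the CUMS oe-circ group received rAAV-hSyn-circFKBP8-bGH-polyA-CMV-EGFP, which carries the primate-specific circular RNA circFKBP8(5S,6), and the CUMS oe-pep group received an rAAV that expresses the encoded protein cFKBP8 from hSyn with a 3×Flag tag and, through P2A, EGFP. All 3 groups were then exposed to chronic unpredictable mild stress (CUMS) for 5 weeks, so no unstressed library enters the comparisons. Each group has 1 library, and how many mice contributed to each is not stated in the sources used here. No difference below was therefore checked against replicates or tested, and each statement compares libraries. Both comparisons share the CUMS vehicle library, so a high or low value there moves both.

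The HSP70 proteins bind exposed hydrophobic stretches of unfolded proteins in an ATP cycle. J proteins deliver clients to HSP70 and stimulate its ATPase, and the HSP110 proteins exchange its nucleotide. HSP90 receives part of these clients at a later stage of folding, together with co-chaperones, one of which is FKBP8, the product of the gene after which circFKBP8(5S,6) is named. Small HSPs hold unfolded proteins without ATP, and the chaperonin HSP60, encoded by Hspd1, encloses proteins in the mitochondrial matrix under its lid HSP10, encoded by Hspe1. In neurons, HSP70 with the J proteins auxilin and cysteine string protein also serves the synaptic vesicle cycle. Heat shock factor 1 switches on many of these genes by binding heat shock elements, which are inverted repeats of the unit nGAAn. Some chaperones of the endoplasmic reticulum (ER) instead carry the ER stress response element (ERSE) in their promoters.

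Promoter sequences show which of the genes carry these known elements. RefSeq promoters of the GRCm38.p6 build, 300 bases long from 250 bases before to 50 bases after a start site, were at hand for 58 of the 72 genes, with 75 promoters in all. The 14 genes without an entry include Hsp90ab1, Hspa8, Hsp90aa1 and Hsf1, which were therefore not searched. The elements were searched on both strands. A heat shock element of 3 units (GAANNTTCNNGAA or TTCNNGAANNTTC) stood in 6 of the 75 promoters (8%), against 0.603% of all 32851 promoters. Among the genes searched it was found at 4 (6.90%), Hsph1, Dnajb6, Hspd1 and Hspe1, beside 0.662% of all genes with a promoter. The elements of Hsph1 and Dnajb6 were each counted in overlapping promoters of the same gene, and Hspd1 and Hspe1 share theirs. An element of 2 units (GAANNTTC or TTCNNGAA), which every 3-unit element contains, stood in 24% of the promoters of these genes and in 15.1% of all promoters. The ERSE (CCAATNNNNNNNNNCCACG) stood in 3 promoters (4%), those of Hspa5, Hsp90b1 and Dnajc3, against 0.119% of all promoters. A match is a description of letters, and binding of a factor was not measured.

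The 3-unit elements are shown with their surroundings because the 4 genes that carry them span 3 families. The letters are in the direction of the gene, with the element's fixed bases in capitals. In the Hsph1 promoter the stretch lies on the minus strand at chr5:149636282-149636306, 9 to 33 bases after the start site. In the Dnajb6 promoter it lies on the plus strand at chr5:29735846-29735870. The Hspd1 and Hspe1 stretches are the same 30 bases at chr1:55088053-55088082 read from the minus and the plus strand, since these genes lie head to head.
Hsph1: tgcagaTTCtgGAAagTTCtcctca
Dnajb6: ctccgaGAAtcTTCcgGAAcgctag
Hspd1: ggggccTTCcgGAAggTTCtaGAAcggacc
Hspe1: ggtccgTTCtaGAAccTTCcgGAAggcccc

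The best known inducible genes Hspa1a, Hspa1b and Hspb1 held elements of 2 units in these windows. The Hspa1a stretch at chr17:34972241-34972272 and the Hspa1b stretch at chr17:34959323-34959354, both on the minus strand, had the same 32 bases. The Hspb1 stretch at chr5:135887790-135887841 on the plus strand held 2 elements.
Hspa1a: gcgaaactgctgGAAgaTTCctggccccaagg
Hspa1b: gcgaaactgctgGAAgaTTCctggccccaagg
Hspb1: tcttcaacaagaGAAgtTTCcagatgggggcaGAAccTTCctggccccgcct

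The 3 promoters with an ERSE belong to ER members of 3 different families. The ER members Dnajb9, Dnajb11, Dnajc10 and Dnajc1 were searched and held none, and Hspa13 had no promoter entry. The capitals mark the CCAAT and CCACG parts of the element, or their complements ATTGG and CGTGG where it lies on the other strand. The Hspa5 stretch is at chr2:34772020-34772048 (plus strand), the Dnajc3 stretch at chr14:118937815-118937857 (plus strand) and the Hsp90b1 stretch, which holds 2 elements, at chr10:86705521-86705668 (minus strand).
Hspa5: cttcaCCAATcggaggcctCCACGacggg
Dnajc3: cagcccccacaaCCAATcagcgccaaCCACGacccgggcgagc
Hsp90b1: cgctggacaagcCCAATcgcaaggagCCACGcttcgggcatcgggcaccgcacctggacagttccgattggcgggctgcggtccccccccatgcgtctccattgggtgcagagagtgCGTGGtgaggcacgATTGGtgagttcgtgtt

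The CUMS vehicle library held 18084058 reads in genes, the CUMS oe-circ library 14413544 and the CUMS oe-pep library 16410635. One read in a gene of 1 kb was worth 0.0540, 0.0687 and 0.0597 FPKM, so a floor of 3 reads was 0.162, 0.206 and 0.179 FPKM. Intervals below are exact intervals at 95% and cover counting error only. The libraries also differed in markers of other cell types. The summed FPKM of 12 markers of striatal projection neurons was 653.7, 212.2 and 538.0, and 11 of the 12 were more than 2-fold lower in CUMS oe-circ. The 9 markers of cholinergic neurons summed to 21.4, 2.47 and 9.16, with all 9 more than 2-fold lower in CUMS oe-circ and 4 in CUMS oe-pep. The 10 markers of oligodendrocytes summed to 1036, 885.3 and 1547 FPKM, and all 10 were more than 1.3-fold higher in CUMS oe-pep. The 10 markers of excitatory cortical neurons, the labelled tissue's main cells, summed to 1601, 1937 and 1681 FPKM, and 5 of the 10 were more than 1.3-fold higher in CUMS oe-circ. All 5 erythrocyte markers were more than 1.3-fold higher in CUMS oe-pep, with sums of 275.5, 311.2 and 402.6 FPKM. The 8 markers of meninges and fibroblasts summed to 7.12, 11.2 and 8.48 FPKM, and 4 of them were more than 1.3-fold higher in CUMS oe-circ. None of these markers was at 0 in any library, and their part in the results below was not tested. In bulk tissue fewer cells of a type and less RNA per cell cannot be told apart.

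The chaperone genes together held a steady share of the transcriptome. Their summed FPKM was 2152 in CUMS vehicle, 2247 in CUMS oe-circ and 2034 in CUMS oe-pep, which is 0.760%, 0.792% and 0.715% of all FPKM. The sum was thus highest in CUMS oe-circ, at 1.04 times CUMS vehicle (1.04 to 1.05), and lowest in CUMS oe-pep, at 0.945 times (0.938 to 0.952). The 3 most abundant genes, Hsp90ab1, Hspa8 and Hsp90aa1, held 50.0%, 50.4% and 49.5% of the sum. By family, the 3 HSP90 genes held 37.4% of it in CUMS vehicle, the 40 J-protein genes 28.6%, the 11 HSP70 genes 23.3% and the 8 small HSP genes 0.988%.

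The families were built in different ways. A single gene dominated HSP70, where Hspa8 held 64.6%, 66.0% and 65.0% of the family's FPKM in the 3 libraries, and HSP90, where Hsp90ab1 held 62.6%, 59.5% and 62.3%. The J proteins had no such gene, since Dnaja2, the highest, held between 9.84% and 11.0% of their sum. Mean levels per gene ranged from 50.0 to 486.8 FPKM in HSP90, from 0.946 to 329.8 in HSP70, from 0.136 to 65.3 in the J proteins and from 0.186 to 7.56 in the small HSPs. The plot of levels by family shows these ranges in each library.

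**Figure D1:**
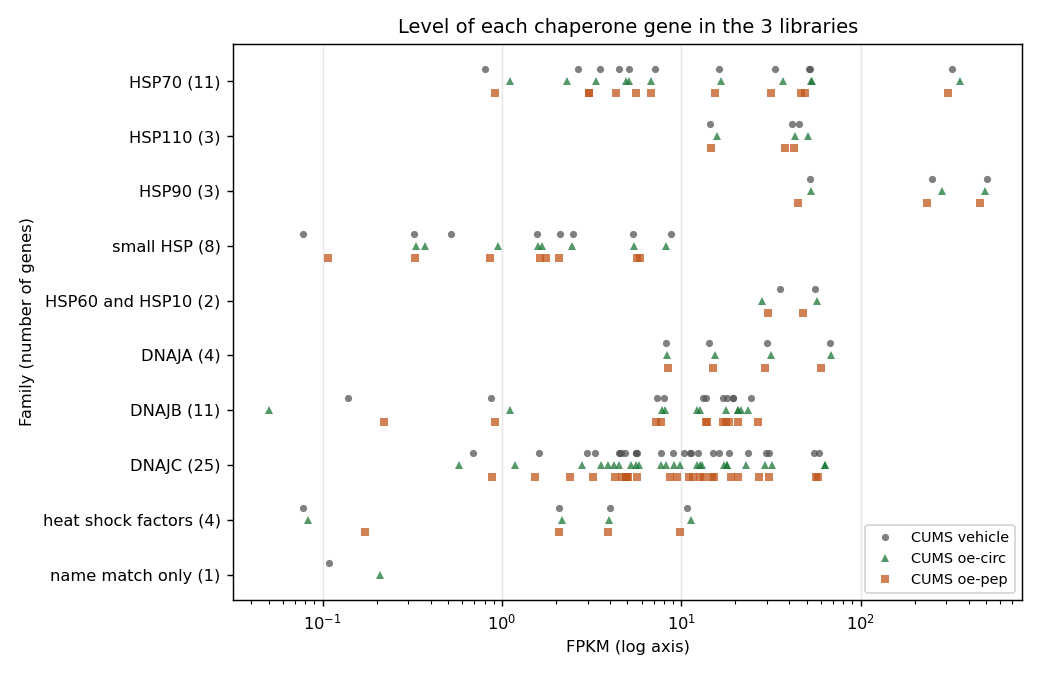
Level of each of the 72 genes by family (vertical axis, number of genes in brackets) in FPKM on a log axis, with 1 point per gene and library: circles for CUMS vehicle, triangles for CUMS oe-circ and squares for CUMS oe-pep. Hsp90ab1, Hspa8 and Hsp90aa1 stand above 200 FPKM in all 3 libraries, the small HSPs lie below 10 FPKM, and the value of 0 for Hsf2bp in CUMS oe-pep is not drawn.

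The first comparison asked how chaperone RNA differed between CUMS mice with circFKBP8(5S,6) overexpression and CUMS vehicle mice. Fold changes are on a scale of log2(FPKM + 0.1), which understates those of low genes. One gene of 72, Hspb7, was more than 2-fold higher and none was more than 2-fold lower, against 3.5% higher and 6.42% lower among all 20203 genes. At a smaller size of 1.3-fold, 5 genes were higher (Hspb7, Dnajc21, Hspb9, Hsf2bp and Hspa1l) and 4 were lower (Dnajb13, Dnajc1, Dnajc17 and Hspb11), against 11.6% and 16.7% of all genes. Among the 65 genes that averaged 20 or more reads, 2 were higher and 3 lower, against 5.78% and 8.32% of the 14551 genes with that many reads. Of these 65 genes, 50 lay within 0.2 of 0 on the log2 scale, and the range ran from -0.41 for Dnajc1 to 0.75 for Dnajc21.

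The second comparison asked the same of the encoded protein cFKBP8. One gene, Hspb2, was more than 2-fold higher in CUMS oe-pep and 1, Hsf2bp, more than 2-fold lower, against 4.54% and 4.93% of all genes. At 1.3-fold, 3 genes were higher (Hspb2, Hsf5 and Dnajb13) and 4 lower (Hsf2bp, Hspb1, Hspb9 and Hspb3), against 13.1% and 13.5% of all genes. With at least 20 reads, none of the 65 genes was more than 1.3-fold higher and 2, Hspb1 and Hspb3, were more than 1.3-fold lower, against 5.88% and 5.56% of the genes with that many reads. On the log2 scale 55 of the 65 lay within 0.2 of 0. In both comparisons the share of chaperone genes past each size was therefore below that of all genes, which were not matched for abundance. Abundant genes of any kind seldom passed 1.3-fold. Of the 4693 genes that averaged 10 FPKM or more, 113 passed it upward and 162 downward in CUMS oe-circ. In CUMS oe-pep 96 passed it upward and 67 downward. None of the 36 chaperone genes at that level, a limit chosen after the values were seen, passed it in either comparison. Whether their share was below that of all such genes was not tested.

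The family medians lay between -0.22 and 0.14 on the log2 scale over both comparisons, with Hsf2bp left out. The median over the 72 genes was 0.04 in CUMS oe-circ and -0.03 in CUMS oe-pep, beside -0.004 and -0.001 over all genes. In CUMS oe-circ the medians were 0.03 for HSP70, 0.14 for HSP110, 0.03 for HSP90, 0.01 for the small HSPs, 0.05 for the J proteins and -0.15 for the chaperonin pair. In CUMS oe-pep they were -0.07 for HSP70, -0.09 for HSP110, -0.12 for HSP90, 0.01 for the small HSPs, 0.0005 for the J proteins and -0.22 for the chaperonin pair. The medians of HSP70, HSP110, HSP90 and the chaperonin pair thus lay below 0 in CUMS oe-pep, although 3 of the 11 HSP70 genes lay above 0. Of the 40 J proteins 20 lay above 0 and 20 below, beside 49.0% and 50.2% of all genes.

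Differences of this size can be read only in abundant genes. Of the 36 genes that averaged 10 FPKM or more, a limit chosen after the values were seen, 26 lay above 0 in CUMS oe-circ (72.2%), beside 55.5% of all 4693 genes at that level. In CUMS oe-pep 25 of the 36 lay below 0 (69.4%), beside 55.6% of all such genes. The CUMS oe-pep library had the lowest value for 23 of the 36 genes, beside 39.8% of all such genes, and the CUMS oe-circ library had the highest for 23, beside 44.7%. The markers of excitatory neurons summed highest in the CUMS oe-circ library and those of oligodendrocytes highest in the CUMS oe-pep library, and their part in these counts was not tested.

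**Figure D2:**
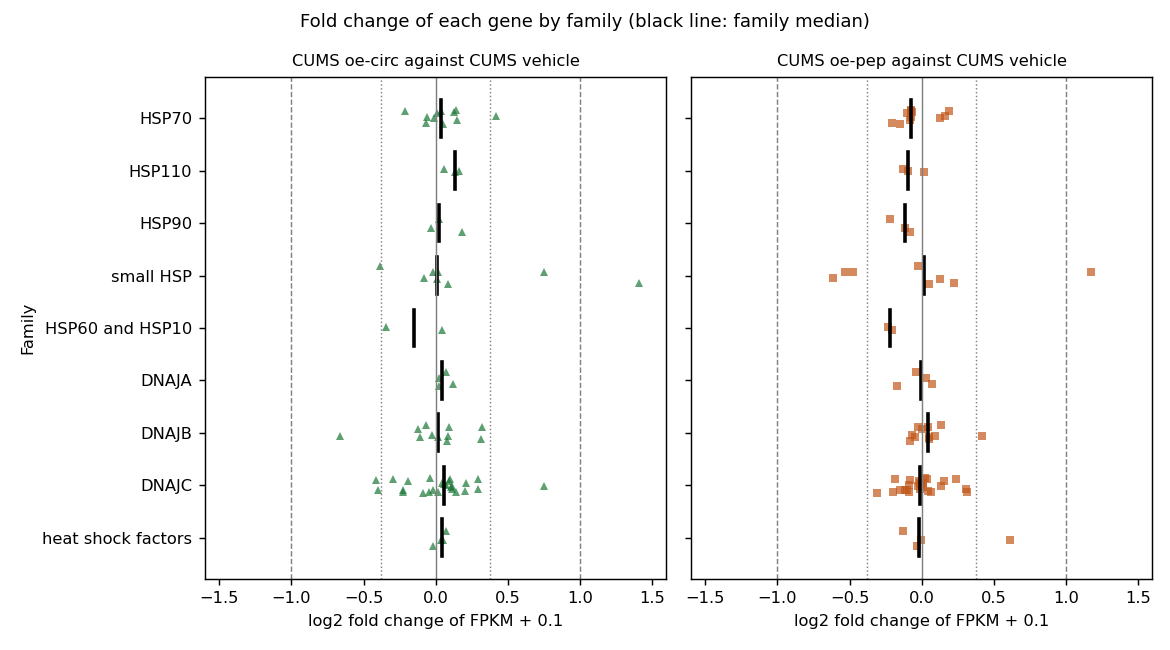
Log2 fold change of FPKM + 0.1 for each gene by family, for CUMS oe-circ (left, triangles) and CUMS oe-pep (right, squares) against CUMS vehicle, with the family median as a black line, 2-fold as dashed lines, 1.3-fold as dotted lines, and points spread vertically only for legibility. The medians lie between -0.15 and 0.14 on the left and between -0.22 and 0.05 on the right, the single point past 2-fold is Hspb7 on the left and Hspb2 on the right, and Hsf2bp is not drawn.

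In HSP90, all 3 genes were lowest in the CUMS oe-pep library. Hsp90ab1, the constitutive cytosolic form, had 503.4 FPKM in CUMS vehicle, 493.1 in CUMS oe-circ and 463.7 in CUMS oe-pep. Hsp90aa1, the stress-inducible cytosolic form, had 249.0, 282.6 and 235.4 FPKM. Hsp90b1, the ER form GRP94, had 52.1, 53.1 and 44.8 FPKM. The CUMS oe-pep ratios to CUMS vehicle were 0.921 (0.905 to 0.937) for Hsp90ab1, 0.945 (0.925 to 0.966) for Hsp90aa1 and 0.859 (0.819 to 0.901) for Hsp90b1, all lower by more than counting error. In CUMS oe-circ the cytosolic forms parted. Hsp90aa1 was 1.13 times CUMS vehicle (1.11 to 1.16), whereas Hsp90ab1 was at 0.980 (0.962 to 0.997). The level of Hsp90aa1 relative to Hsp90ab1 was 0.495 (0.485 to 0.504) in CUMS vehicle, 0.573 (0.561 to 0.585) in CUMS oe-circ and 0.508 (0.497 to 0.518) in CUMS oe-pep, a pair chosen after its values were seen. Hsp90aa1 has 3 near-identical copies in the genome, with at most 291 reads each, between which reads may have been split.

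In HSP70, the order of the libraries was the same for the 3 most abundant genes, with CUMS oe-circ highest and CUMS oe-pep lowest. Hspa8, the constitutive cytosolic HSP70 that also uncoats clathrin vesicles, had 324.3, 356.8 and 308.2 FPKM in the vehicle, oe-circ and oe-pep libraries. Hspa5, the ER form BiP, had 52.3, 52.8 and 48.8 FPKM. Hspa9, the mitochondrial form, had 51.8, 53.7 and 46.6 FPKM. Only Hspa8 was higher in CUMS oe-circ by more than counting error among these, at 1.10 times CUMS vehicle (1.08 to 1.12). In CUMS oe-pep the ratios were 0.950 (0.933 to 0.967) for Hspa8, 0.932 (0.891 to 0.976) for Hspa5 and 0.900 (0.858 to 0.944) for Hspa9. Hspa8 has 6 near-identical copies, most of them processed pseudogenes, with at most 67 reads each.

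The heat-inducible pair of HSP70 genes was low and nearly level. Hspa1a had 3.51 FPKM in CUMS vehicle, 3.36 in CUMS oe-circ and 3.04 in CUMS oe-pep, and Hspa1b had 4.51, 4.93 and 4.30 FPKM. The ratios to CUMS vehicle were 0.956 (0.765 to 1.19) and 0.865 (0.694 to 1.08) for Hspa1a, and 1.09 (0.900 to 1.32) and 0.954 (0.786 to 1.16) for Hspa1b, so no difference was detectable at this depth. The genes lie next to each other on chromosome 17 and are 99.4% identical over 2184 bases, so the division of reads between them is uncertain.

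The HSP110 genes, whose products release ADP from HSP70, were all above CUMS vehicle in CUMS oe-circ by more than counting error. Of the abundant HSP70 genes this held for Hspa8, but not for Hspa5 and Hspa9. Hspa4 had 45.2, 50.6 and 42.4 FPKM, Hsph1 had 41.4, 43.2 and 37.8 FPKM and Hspa4l had 14.4, 15.9 and 14.6 FPKM in the vehicle, oe-circ and oe-pep libraries. All 3 were highest in CUMS oe-circ, with ratios of 1.12 (1.07 to 1.17), 1.04 (1.002 to 1.084) and 1.10 (1.05 to 1.16). In CUMS oe-pep, Hspa4 at 0.936 (0.897 to 0.977) and Hsph1 at 0.912 (0.877 to 0.949) were below CUMS vehicle, and Hspa4l at 1.01 (0.960 to 1.06) was not.

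The mitochondrial chaperonin pair was lower in CUMS oe-pep, and its genes parted in CUMS oe-circ. Hspd1 had 55.4 FPKM in CUMS vehicle, 57.2 in CUMS oe-circ and 47.9 in CUMS oe-pep. Hspe1 had 35.6, 28.0 and 30.3 FPKM, from 972, 601 and 747 reads. In CUMS oe-pep the ratios were similar, 0.866 (0.818 to 0.917) for Hspd1 and 0.849 (0.771 to 0.935) for Hspe1. In CUMS oe-circ Hspd1 was at 1.03 (0.976 to 1.09) and Hspe1 at 0.786 (0.709 to 0.872). Within a library, Hspe1 stood at 0.644 times the FPKM of Hspd1 (0.598 to 0.693) in CUMS vehicle, 0.490 (0.447 to 0.536) in CUMS oe-circ and 0.631 (0.580 to 0.686) in CUMS oe-pep, a pair again chosen after its values were seen. The genes share the promoter stretch with the heat shock elements shown above, Hspd1 on the minus strand at chr1:55077835-55088243 and Hspe1 on the plus strand at chr1:55088132-55091307, and overlap by 112 bases. Both have near-identical copies, and that of Hspd1, Hspd1-ps3, held 99, 80 and 115 reads. The copies of Hspe1 are Hspe1-ps1, with 0 reads in each library, and AC117239.2, 99.0% identical over 515 bases. No reads are given for AC117239.2, so a split of Hspe1 reads with it could not be checked.

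**Figure D3:**
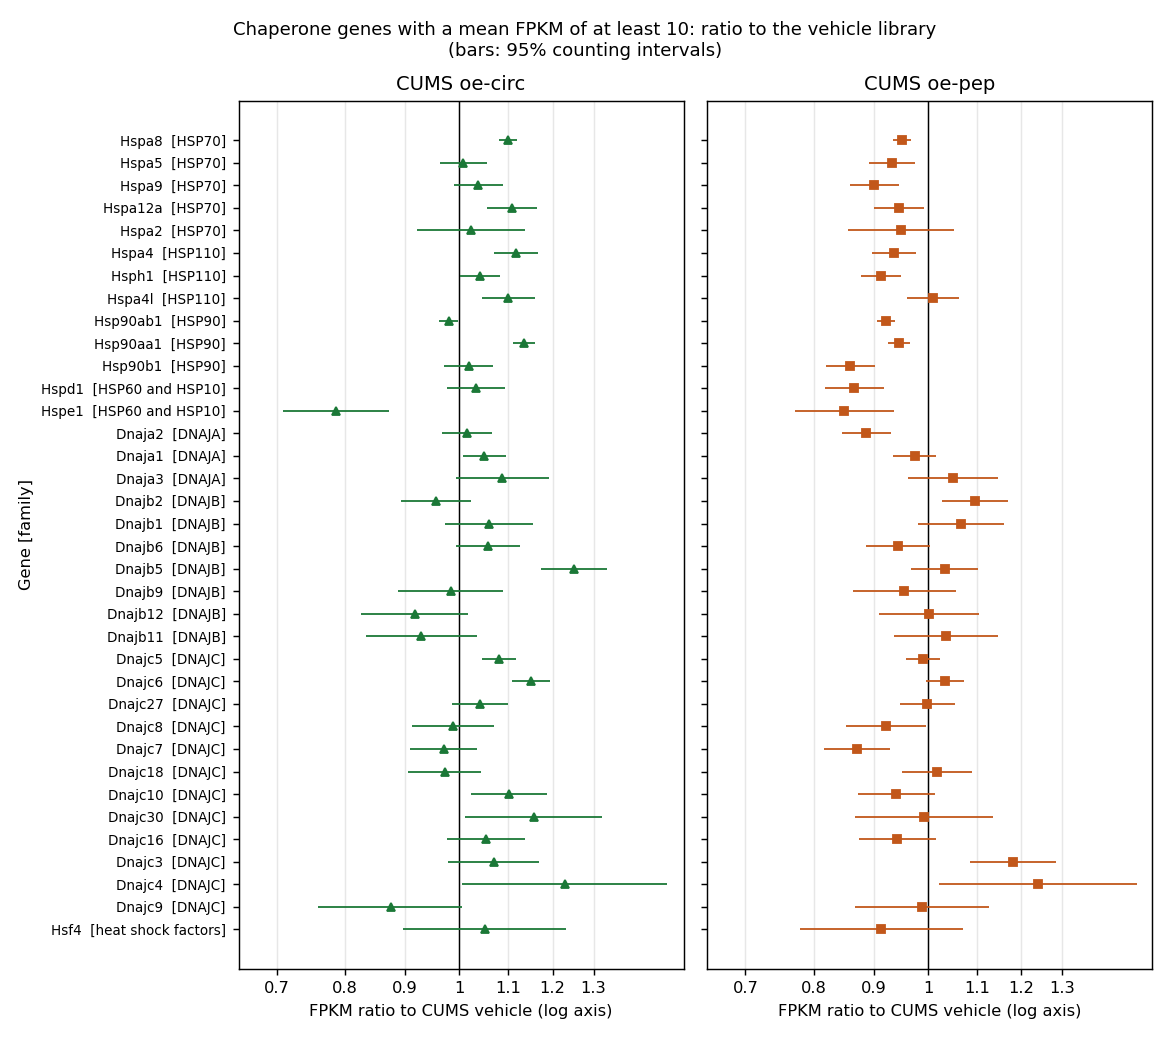
FPKM ratio to the CUMS vehicle library (log axis) for the 36 genes that averaged 10 FPKM or more, ordered by family, in CUMS oe-circ (left) and CUMS oe-pep (right), with 95% counting intervals as bars. In CUMS oe-circ 26 of the 36 lie above 1 and Hspe1 lies lowest at 0.786, and in CUMS oe-pep 25 of the 36 lie below 1, among them all 3 HSP90 genes.

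The small HSPs had the lowest median level per gene of the families, and 3 of the 8 had a mean of fewer than 20 reads. Hspb1, which holds unfolded proteins and protects actin filaments, had 8.75 FPKM in CUMS vehicle (167 reads), 8.27 in CUMS oe-circ (124 reads) and 5.68 in CUMS oe-pep (98 reads). Only the CUMS oe-pep library was low. Its ratio to CUMS vehicle was 0.648 (0.500 to 0.837), and that of CUMS oe-circ was 0.944 (0.743 to 1.20). Hspb1 lies on the plus strand at chr5:135887919-135889563, and a copy of its coding sequence, Gm9817, had 0, 2 and 2 reads.

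The other small HSPs did not share this pattern beyond counting error. Hspb8, which works with BAG3 in selective autophagy, had 5.40, 5.43 and 5.91 FPKM, a ratio of 1.09 (0.892 to 1.34) in CUMS oe-pep. The level of Hspb1 relative to Hspb8 was 1.62 (1.31 to 2.00) in CUMS vehicle, 1.52 (1.19 to 1.94) in CUMS oe-circ and 0.960 (0.745 to 1.23) in CUMS oe-pep, a pair also chosen after its values were seen. Hspb3, a small HSP known from muscle, had 2.49, 2.46 and 1.76 FPKM from 36, 28 and 23 reads, a ratio of 0.706 (0.399 to 1.22) in CUMS oe-pep. Hspb11, which despite its name is a subunit of the intraflagellar transport complex, had 2.11, 1.59 and 2.08 FPKM, a ratio of 0.754 (0.516 to 1.09) in CUMS oe-circ.

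The largest folds among all 72 genes came from genes with a few reads. Hspb7, known from heart muscle, had 4, 15 and 5 reads in the vehicle, oe-circ and oe-pep libraries, or 0.0781, 0.372 and 0.108 FPKM, which gave 4.77 times CUMS vehicle in CUMS oe-circ (1.52 to 19.7). Hspb2, a small HSP known from muscle, had 5, 4 and 12 reads, or 0.324, 0.330 and 0.859 FPKM, and was at 2.65 times CUMS vehicle in CUMS oe-pep (0.870 to 9.61). Hspb9 had 7, 10 and 4 reads, and its intervals included 1 in both comparisons. Hsf2bp had 6, 9 and 0 reads, and the counting interval of its CUMS oe-pep ratio ran from 0 to 0.939. With the floor of 3 reads in place of 0 in that library, it was 1.81-fold lower.

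**Figure D4:**
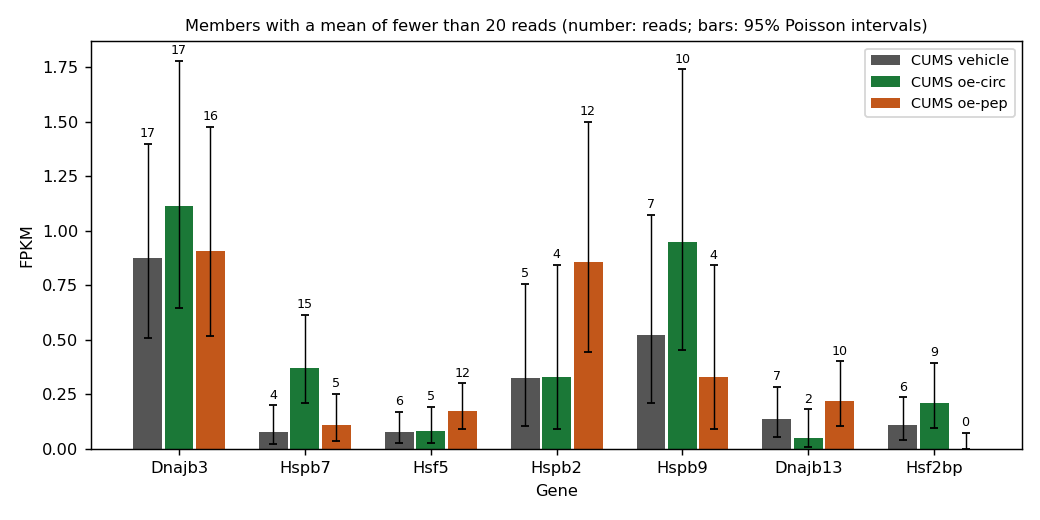
FPKM of the 7 genes with a mean of fewer than 20 reads, with bars for the vehicle, oe-circ and oe-pep libraries, exact 95% Poisson intervals, and the number of reads above each interval. Hspb7 in CUMS oe-circ (15 reads) lies above CUMS vehicle (4 reads), and Hsf2bp in CUMS oe-pep had 0 reads.

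Hspb2 overlaps Cryab on the opposite strand by 1030 bases. Cryab encodes the small HSP alpha-B-crystallin, which oligodendrocytes express strongly and which the name rule does not take, and it was looked at after the values of Hspb2 were seen. It had 49.7 FPKM in CUMS vehicle, 50.5 in CUMS oe-circ and 71.0 in CUMS oe-pep, a ratio of 1.43 (1.33 to 1.53) in CUMS oe-pep. This RNA, more abundant than that of any Hspb gene, was thus high in CUMS oe-pep, where Hspb1 was low. The 10 oligodendrocyte markers were all more than 1.3-fold higher in the same library, and their part in the value of Cryab was not tested.

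Among the J proteins, the class A genes, which encode the general helpers of cytosolic and mitochondrial HSP70, were close to level. Dnaja2 had 67.5, 68.5 and 59.9 FPKM, Dnaja1 had 30.1, 31.6 and 29.3, Dnaja3, the mitochondrial form, had 14.2, 15.5 and 15.0, and Dnaja4 had 8.19, 8.33 and 8.38 FPKM in the vehicle, oe-circ and oe-pep libraries. All 4 were slightly above CUMS vehicle in CUMS oe-circ, by ratios of 1.01 to 1.09. In CUMS oe-pep Dnaja2 was lower beyond counting error, at 0.887 (0.845 to 0.931), and the other ratios lay between 0.974 and 1.05.

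In class B, which includes the heat-inducible HSP40, 1 gene stood out in CUMS oe-circ. Dnajb2, a neuronal J protein that binds ubiquitin chains, had 24.5, 23.4 and 26.9 FPKM, Dnajb1, the heat-inducible HSP40, had 19.4, 20.6 and 20.7 FPKM, and Dnajb6, which keeps polyglutamine proteins from aggregating, had 19.4, 20.6 and 18.4 FPKM. Dnajb5, chosen after its values were seen, had 17.2 FPKM in CUMS vehicle, 21.5 in CUMS oe-circ and 17.7 in CUMS oe-pep, with a CUMS oe-circ ratio of 1.25 (1.17 to 1.33). Only the CUMS oe-circ library was high. Dnajb1, a close relative of Dnajb5 and a target of heat shock factor 1, was at 1.06 (0.972 to 1.16) there and at 1.07 (0.981 to 1.16) in CUMS oe-pep. Dnajb2 was the gene of this class above CUMS vehicle in CUMS oe-pep beyond counting error, at 1.10 (1.03 to 1.17). Dnajb13, known from sperm and motile cilia, had 7, 2 and 10 reads with intervals that included 1, and the summed FPKM of the motile cilia markers, whose part was not tested, was 8.26, 9.48 and 19.6.

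Class C holds J proteins with special clients, and the abundant genes were those of the synapse. Dnajc5, the cysteine string protein of synaptic vesicles, had 58.7, 63.4 and 58.1 FPKM in the vehicle, oe-circ and oe-pep libraries. Dnajc6, auxilin, which brings Hspa8 to clathrin coats, had 54.8, 63.0 and 56.6 FPKM. Both were highest in CUMS oe-circ, at 1.08 (1.05 to 1.12) and 1.15 (1.11 to 1.19) times CUMS vehicle, as was their partner Hspa8, and in CUMS oe-pep they were at 0.990 (0.958 to 1.02) and 1.03 (0.996 to 1.07). Dnajc27, a small GTPase with a J domain, had 30.7, 32.0 and 30.7 FPKM. The excitatory neuron markers were also highest in CUMS oe-circ, and their part in the values of Dnajc5 and Dnajc6 was not tested.

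Dnajc21 showed the largest difference among the genes with at least 20 reads. Its product is known in humans and yeast for its role in the maturation of the large ribosomal subunit. It had 4.51 FPKM in CUMS vehicle (399 reads), 7.68 in CUMS oe-circ (534 reads) and 4.96 in CUMS oe-pep (397 reads). The CUMS oe-circ library was high and the others were near each other, with ratios of 1.70 (1.49 to 1.94) and 1.10 (0.954 to 1.27). The gene lies on the minus strand at chr15:10446756-10470516, overlaps no other gene of the table, and had no near-identical copy.

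The other class C differences were smaller. Dnajc1, an ER membrane J protein, had 1.61, 1.19 and 1.52 FPKM from 348, 201 and 297 reads, a ratio of 0.735 (0.614 to 0.877) in CUMS oe-circ. It shares 16735 bases with Mllt10 on the opposite strand, which had 4.86, 3.75 and 4.85 FPKM, low in the same library. Dnajc17 had 5.58, 4.20 and 5.02 FPKM, a ratio of 0.754 (0.564 to 1.001) in CUMS oe-circ. Of genes chosen after their values were seen, Dnajc13, which acts on endosomes, had 4.56, 5.60 and 4.67 FPKM, with a ratio of 1.23 (1.12 to 1.34) in CUMS oe-circ. Dnajc7, a J protein with repeats that bind both HSP70 and HSP90, had 23.7, 23.0 and 20.6 FPKM, with a ratio of 0.870 (0.816 to 0.928) in CUMS oe-pep. It overlaps the oligodendrocyte gene Cnp on the opposite strand by 8912 bases, and Cnp had 99.4, 77.2 and 130.6 FPKM.

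The ER members did not move as 1 group in CUMS oe-pep. Dnajc3, a J protein of the ER lumen and known inhibitor of the stress kinase PERK, also chosen after its values were seen, had 11.4, 12.2 and 13.4 FPKM. Its CUMS oe-pep ratio was 1.18 (1.08 to 1.28), whereas those of Hsp90b1 (0.859) and Hspa5 (0.932), the other genes with an ERSE in their promoters, were below 1. In CUMS oe-circ all 3 lay within counting error of CUMS vehicle. A list of 24 genes of the ER unfolded protein response, 8 of them chaperones described here, had medians of 0.01 and -0.07 on the log2 scale. None of the 24 was past 1.3-fold in either comparison. Of all genes, not matched for abundance, 11.6% were past it upward and 16.7% downward in CUMS oe-circ, and 13.1% and 13.5% in CUMS oe-pep.

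The heat shock factor genes were level. Hsf1, the main activator of the heat shock response, had 4.02, 3.96 and 3.92 FPKM in the vehicle, oe-circ and oe-pep libraries, ratios of 0.985 (0.864 to 1.12) and 0.975 (0.859 to 1.11). Hsf2, which can form trimers with HSF1, had 2.09, 2.17 and 2.09 FPKM. Hsf4, known from the lens, had 10.8, 11.4 and 9.88 FPKM, the highest level of the 4. Hsf5, known from testis, had 6, 5 and 12 reads, a CUMS oe-pep ratio of 2.21 (0.768 to 7.18), so its place past 1.3-fold is within counting error. The 4 genes with a 3-unit heat shock element in the promoter had a median of 0.05 in CUMS oe-circ and -0.17 in CUMS oe-pep on the log2 scale, where all 4 lay below 0. All 4 are abundant, and of the 24 other genes with a promoter that averaged 10 FPKM or more, a set chosen after the values were seen, 14 lay below 0 in CUMS oe-pep, with a median of -0.03. Abundant genes that were not searched, among them Hsp90ab1, Hspa8 and Hsp90aa1, are in neither set. Of all 36 chaperone genes at that level, 25 lay below 0 in CUMS oe-pep. The 4 genes with the element include Hspd1 and Hspe1, which share it.

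Other genes of the pathway were also near level. The list of 22 HSF1 targets, of which 14 are among the chaperones above, had medians of 0.06 and -0.08, none past 2-fold in either comparison. In CUMS oe-pep 2 of the 22 were more than 1.3-fold higher (Cryab and Bag3) and 1 lower (Hspb1). The 29 co-chaperones had medians of 0.03 and -0.05, with 1 gene more than 1.3-fold higher in each comparison, Bag2 in CUMS oe-circ and Bag3 in CUMS oe-pep. The 18 mitochondrial chaperones and proteases had medians of 0.03 and -0.03 and the 5 J proteins with other names had -0.01 and 0.05, none past 1.3-fold. The 14 subunits of the cytosolic chaperonin CCT and of prefoldin, its delivery complex, had medians of 0.01 and -0.13, with 11 of 14 below 0 in CUMS oe-pep. Also below 0 there were 15 of the 22 HSF1 targets, 19 of the 29 co-chaperones and 13 of the 18 mitochondrial genes. Of the 5 J proteins with other names, 1 was below 0. Beside these counts, 50.2% of all genes lay below 0 in CUMS oe-pep, and 55.6% of those that averaged 10 FPKM or more. Fkbp8, the mouse gene of the HSP90 co-chaperone and not the overexpressed sequence, had 80.5, 78.0 and 77.2 FPKM, ratios of 0.969 (0.934 to 1.005) and 0.960 (0.927 to 0.994).

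The families were also compared by their summed FPKM. In CUMS oe-pep the ratio to CUMS vehicle was 0.925 (0.913 to 0.937) for HSP90, 0.945 (0.931 to 0.959) for HSP70, 0.937 (0.913 to 0.961) for HSP110, 0.859 (0.817 to 0.904) for the chaperonin pair and 0.863 (0.756 to 0.985) for the small HSPs, against 0.989 (0.976 to 1.003) for the J proteins. Within the J proteins the sums of the classes differed, with 0.937 (0.908 to 0.967) for DNAJA, which overlapped the intervals of HSP70 and HSP90, 1.02 (0.990 to 1.05) for DNAJB and 0.996 (0.978 to 1.01) for DNAJC. The DNAJA sum rested on Dnaja2, which held 56.3% of it in CUMS vehicle. The DNAJA median was -0.002 on the log2 scale, with 2 of the 4 genes above 0 and 2 below. The small HSP sum rested on Hspb1, since the other 7 genes summed to 12.5 FPKM in CUMS vehicle and 12.7 in CUMS oe-pep. That split was made after the values were seen, and the family median was 0.01 on the log2 scale. This sum, 21.3 FPKM in CUMS vehicle and 18.4 in CUMS oe-pep, leaves out the small HSP gene Cryab, which the name rule does not take. Cryab alone had 49.7 and 71.0 FPKM, more than the 8 genes together and in the other direction. In CUMS oe-circ the ratios were 1.03 (1.02 to 1.04) for HSP90, 1.08 (1.06 to 1.09) for HSP70, 1.08 (1.06 to 1.11) for HSP110, 1.05 (1.03 to 1.06) for the J proteins, 0.937 (0.890 to 0.986) for the chaperonin pair and 0.991 (0.866 to 1.13) for the small HSPs. With 1 library per group, the spread between mice is not in these intervals.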

How the data were processed

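RNA of PrL tissue was sequenced in 3 libraries, 1 per group, and groups were taken from the sample labels. The deposited table gives, for each gene, its length and the FPKM that the authors computed. Per the submitters' processing notes, mm10 was used with HISAT2 2.1.0, featureCounts 1.6.3 and cutadapt 2.5. Per the labels the library kit was stranded; the strand setting of the counting is not given in the sources used here, so reads of overlapping genes on opposite strands may not be separated. The product of FPKM and length came in whole multiples of 1 value per library, to 7.74e-09 of a read, and these were taken as reads.

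Fold changes used log2(FPKM + 0.1) where FPKM averaged 0.1 or more. Ratios carry exact conditional binomial intervals, FPKM exact Poisson intervals, and sums of FPKM an approximate interval of the log ratio, all at 95%. With 1 library per group no P value was computed. No count model was used. Near-identical copies were searched with minimap2 2.31-r1302 (GENCODE vM21, 95% identity or more across 50% or more of a transcript), and 14 of the 72 genes had at least 1. Promoters came from RefSeq (GRCm38.p6). The calculations (Python 3.11.15, pandas 2.3.3, scipy 1.17.1) were tested on simulated data.

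Named genes were the 3 most abundant per family, all genes past 2-fold, those past 1.3-fold with at least 20 reads and an interval without 1, the heat shock factors and 6 well-known inducible genes; the others are marked as chosen later or make up a count. Members and lists were chosen with earlier results of these data known. Alternatives were other pseudocounts, filters and scalings.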

Additional observations from a re-analysis of the deposited data

How the results depend on the processing

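The counts of genes past a size depended on the scarce genes. In CUMS oe-circ, the count more than 2-fold higher was 0 with a pseudocount of 1, with a mean FPKM of at least 1 or with a mean of at least 20 reads, and 2 with no filter, and that more than 2-fold lower was 1 with a pseudocount of 0.01. More than 1.3-fold higher were 1 gene with a pseudocount of 1 or a mean FPKM of at least 1 and 2 with at least 20 reads, and more than 1.3-fold lower were 0 with a pseudocount of 1. In CUMS oe-pep, the count more than 2-fold higher was 2 with a pseudocount of 0.01 and 0 with a pseudocount of 1, a mean FPKM of at least 1 or at least 20 reads, and that more than 2-fold lower was 0 in the last 3 settings. More than 1.3-fold higher were 1 with a pseudocount of 1, 0 with a mean FPKM of at least 1 or at least 20 reads and 5 with no filter, and more than 1.3-fold lower were 1 with a pseudocount of 1 and 2 with either filter.

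Of 176 alternative family medians, 1 moved by more than counting error, the mean in place of the median for HSP90 in CUMS oe-circ (0.0598). The sign of a median turned in 10 cases, with values from -0.02 to 0.11, for the small HSPs, the J proteins and their classes A and B, and the heat shock factors. None of the 66 alternative ratios of summed FPKM moved beyond counting error or crossed 1. Of 474 values of named genes none turned, and 1 moved beyond counting error (Hspb7 in CUMS oe-circ with a pseudocount of 1, 0.35). Scaling by the median ratio shifted the libraries by 0.006 and -0.003 on the log2 scale. No paired analysis was possible because each group has 1 library, so no library could be left out. Genes under about 20 reads are limited by depth.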
